A study of Mus musculus with 17 samples.

Results

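Prrx1, Prrx2, Twist1, Twist2, Snai2, Osr2 and Meox2 are 7 genes for transcription factors of connective tissue precursors, and their RNA was followed through 17 single cells of adult mouse back skin. They were chosen by name, and each has 1 row among the 8446 rows of the deposited table. All cells came from C57BL/6 mice of the genotype Prrx1-CreERT;Tomato, in which tamoxifen-activated Cre switches on a red Tomato reporter. The mice had been injected with tamoxifen, 2 mg per 30 g of body weight, once daily for 3 days. Tomato-positive cells were sorted from enzyme-digested skin and picked one by one under a fluorescence microscope, and each became 1 library made with a 3' end kit. The cells form 1 group with no untreated or Tomato-negative cells, and the sources used here do not give the number of mice. The cells were therefore handled as 1 sample, described without a test between groups, and SDs are over cells. Because Prrx1 sequence drives the Cre that switches on the reporter, detection of Prrx1 is not independent of how the cells were picked. The Prrx1 sequence that drives the Cre is not named in the labels.

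Prrx1 and Prrx2 are paired-related homeobox factors of limb, facial and dermal mesenchyme. Twist1 and Twist2 are basic helix-loop-helix factors that bind E-box DNA as dimers with E proteins, and Twist2, also named Dermo1, is known for its expression in developing mouse dermis. Snai2, or Slug, is a zinc finger repressor that turns down epithelial adhesion genes. Osr2 is a zinc finger factor of palate, tooth and joint mesenchyme, and Meox2 is a homeobox factor of somite-derived mesenchyme and vessels.

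Values are those of the deposited table, read as log2 of FPKM (fragments scaled to transcript length and to mapped fragments) plus 1, although no source used here states the log base or what was added. Sorted values are almost the same in every cell, the form that quantile normalisation gives, so that a value is in effect a rank within its cell: the middle row of each cell has the value 1.18. Over all rows and cells the values have a large low peak and a second mode, with the fewest values between 2.5 and 3. FPKM 1, a value of 1, was the detection limit. FPKM 5, a value of 2.58, lies in that trough and is given beside it. In each cell 51.7% of rows reached FPKM 1 and 40.5% reached FPKM 5. The depth of the libraries is unknown.

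The cells carried fibroblast RNA. All 10 fibroblast markers had a row, each cell had 9 or 10 of them at FPKM 1 or more, and 9 markers reached it in all 17 cells. At FPKM 5, 8 of the 10 were found in all 17 cells, against 7.20% of all rows. The other skin cell types were thinly covered by the table, with 0 to 6 markers measured per type. Of these, Fabp4 of adipocytes and Mbp of Schwann cells reached FPKM 1 in 12 cells each and no other marker in as many as 9. Low values were alike within 3 runs of cell numbers, from 1 to 5, from 6 to 14 and from 15 to 17, called sets here. Over 224 rows under 2.5 in all cells the mean Spearman correlation was 0.276 between cells of 1 set and 0.0977 between sets. Since these correlations also defined the sets, the gap was built in, and the labels know no such groups. Mural cell markers (pericytes and vascular smooth muscle) were detected most often in the first set: cells 1 to 5 had 4 or 5 of the 6 measured at FPKM 1 or more, and every other cell 0 to 2. At FPKM 5 the numbers were 0 to 2 in cells 1 to 5 and 0 or 1 in the others. Summed over the 6 markers, FPKM ranged from 6.23 to 93.0 in cells 1 to 5, from 0.110 to 48.9 in cells 6 to 14 and from 2.50 to 21.8 in cells 15 to 17. The part of any of these markers in the values below was not tested.

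The genes of a pair resemble each other in sequence, which bears on how well reads can be told apart. The coding sequences of Prrx1 (735 bases) and Prrx2 (741 bases) were identical at 482 of 713 aligned bases, or 67.6%. Those of Twist1 (618 bases) and Twist2 (480 bases) were identical at 395 of 480 aligned bases, or 82.3%. The 180 bases of highest identity without a gap in the coding alignment are shown for each gene. Whether reads were given to the wrong paralog was not tested. Capitals mark the bases at which the paralogs differ, and sequences run 5′ to 3′ on the coding strand from the GENCODE transcripts on GRCm38. In the Prrx pair they cover coding bases 293 to 472 of Prrx1 and 305 to 484 of Prrx2, in exons 2 and 3 of both genes, and with the intron between them lie at chr1:163257888-163261964 on the minus strand and chr2:30878467-30879546 on the plus strand. In the Twist pair they cover coding bases 321 to 500 of Twist1 and 183 to 362 of Twist2, in exon 1 of both genes, at chr12:33958298-33958477 and chr1:91801809-91801988, both on the plus strand.
Prrx1: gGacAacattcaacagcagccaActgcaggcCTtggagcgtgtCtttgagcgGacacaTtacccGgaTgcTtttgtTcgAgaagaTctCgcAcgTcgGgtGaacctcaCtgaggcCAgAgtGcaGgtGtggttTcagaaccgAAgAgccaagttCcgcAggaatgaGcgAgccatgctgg
Prrx2: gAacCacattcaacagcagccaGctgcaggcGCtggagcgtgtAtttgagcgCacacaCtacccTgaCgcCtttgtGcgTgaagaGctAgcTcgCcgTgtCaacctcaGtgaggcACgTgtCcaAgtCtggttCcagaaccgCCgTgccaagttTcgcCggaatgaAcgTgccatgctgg
Twist1: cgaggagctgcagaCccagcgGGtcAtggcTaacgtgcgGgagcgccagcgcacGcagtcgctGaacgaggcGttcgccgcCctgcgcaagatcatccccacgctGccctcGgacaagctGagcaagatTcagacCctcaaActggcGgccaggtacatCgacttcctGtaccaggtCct
Twist2: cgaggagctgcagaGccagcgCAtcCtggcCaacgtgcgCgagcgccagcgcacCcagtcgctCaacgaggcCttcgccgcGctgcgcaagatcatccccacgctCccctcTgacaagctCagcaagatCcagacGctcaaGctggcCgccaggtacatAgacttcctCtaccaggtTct
The Prrx window held 34 differences and the Twist window 20. The longest stretch that any transcripts of a pair shared exactly was 19 bases for Prrx1 and Prrx2 and 23 bases for Twist1 and Twist2. The window ended 3405 bases before the 3' end of the Prrx1 transcript and 581 before that of Prrx2, and 821 bases before the end of Twist1 and 801 before that of Twist2. The read length is not stated in the labels.

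Prrx1 (ENSMUSG00000026586, chr1:163245119-163313710) was the only one of the genes at FPKM 5 or more in all 17 cells (exact Clopper-Pearson 95% interval 80.5% to 100%, for counting error over cells only). This held for 7.20% of all rows. Its lowest value was 2.63 in cell 7, its median 5.68 and its highest 7.31 in cell 16. Back-transformed, that is FPKM 5.19 in cell 7 and 158 in cell 16. Within a cell Prrx1 stood between the 59.8 and the 91.1 percentile of rows, with a median at 80.3. Its mean was 5.41 (SD 1.31, n = 17 cells). Among the 608 rows at FPKM 5 or more in every cell the median SD was 1.15, and 380 of them, or 62.5%, varied no more than Prrx1. Prrx1 had medians of 6.37 in cells 1 to 5, 4.60 in cells 6 to 14 and 6.68 in cells 15 to 17. The ranges of the sets overlapped, from 3.85 to 6.59, from 2.63 to 7.17 and from 5.68 to 7.31. Of the 6 mural markers, each of cells 1 to 5 had 4 or 5 at FPKM 1 or more. Cells 6 to 14 had 0 to 2 and cells 15 to 17 had 1 or 2. The part of the mural markers, and that of anything else the libraries of a set share, was not tested. An annotated gene on the opposite strand, Gm20471, overlaps exons of Prrx1, and the labels do not say whether the counting used strand.

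**Figure D1:**
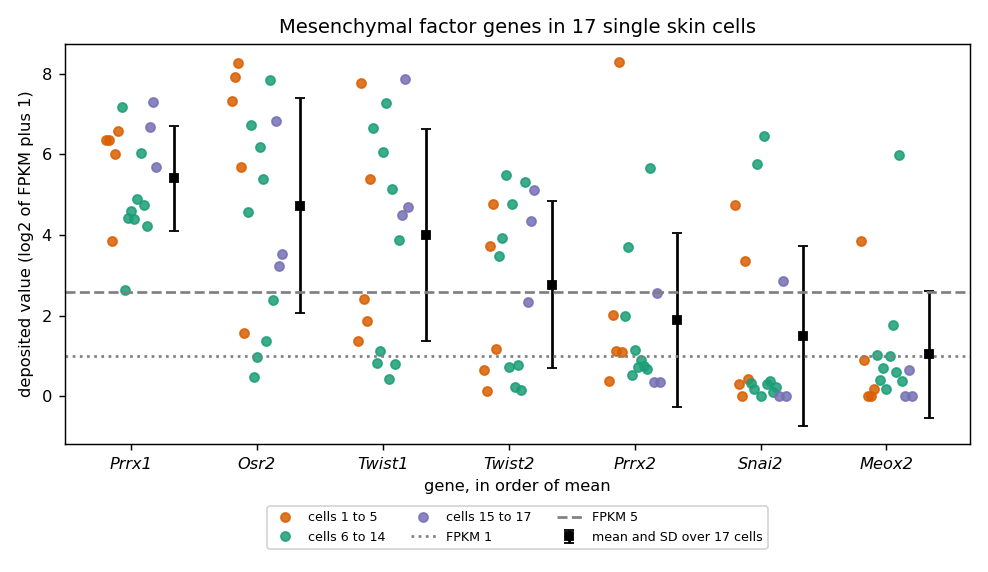
Deposited values (log2 of FPKM plus 1, vertical axis) of each gene in 17 cells, with 1 point per cell coloured by the set of cells and the mean and SD over cells in black. All Prrx1 points lie above the FPKM 5 line, Osr2, Twist1 and Twist2 fall on both sides of it, and 3, 5 and 2 cells lie above it for Prrx2, Snai2 and Meox2.

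Prrx2 (ENSMUSG00000039476, chr2:30834972-30881251) was low in most of the cells and high in a few. It reached FPKM 5 in 3 cells, with 8.29 in cell 4, 5.67 in cell 14 and 3.69 in cell 7. In the other 14 cells it lay between 0.35 and 2.55. Its median of 1.10 was below the middle row of a cell, and of the 9 cells at FPKM 1 or more 6 had values under FPKM 5. Its mean was 1.89 (SD 2.16, n = 17 cells). Of the 7 genes, Prrx2 is 1 of 5 that reached FPKM 1 in at least 9 cells, as did 46.9% of all rows. At FPKM 5 in at least 9 cells there were 4 of the 7 genes (Prrx1, Osr2, Twist1 and Twist2) and 32.3% of all rows.

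Set side by side, Prrx1 exceeded Prrx2 in 14 cells, with a median difference, Prrx1 minus Prrx2, of 4.09 on the log2 scale (mean 3.52, SD 2.62). The exceptions were the 3 cells with Prrx2 at FPKM 5 or more. There the difference was -2.28 in cell 4, -1.06 in cell 7 and -1.45 in cell 14. Cell 4 held both genes high, with Prrx1 at 6.01, whereas cell 7 had the lowest Prrx1 of all. Over the 17 cells the Spearman correlation of the pair was -0.12 (Pearson -0.09). FPKM divides by transcript length, while a 3' end kit reads mostly one end. With values multiplied by exonic length (11.1 kb for Prrx1 and 1.96 kb for Prrx2) the median difference was 7.03. Exonic length here joins the exons of all annotated transcripts of a gene, so it can exceed the length of any 1 transcript. The part of transcript length in the gap was not tested.

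Twist1 (ENSMUSG00000035799, chr12:33957671-33959829) reached FPKM 1 in 14 cells and FPKM 5 in 10. Its lowest value was 0.42 in cell 11, its median 4.51 and its highest 7.88 in cell 16, with 7.77 in cell 2 and 7.29 in cell 10 close behind. The mean was 4.00 (SD 2.63, n = 17 cells), against an SD of 1.31 for Prrx1. The 10 cells above FPKM 5 began at 3.88 and the 7 below it ended at 2.40.

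Twist2 (ENSMUSG00000007805, chr1:91801461-91848028) reached FPKM 1 in 11 cells and FPKM 5 in 9. Its lowest value was 0.14 in cell 2, its median 3.47 and its highest 5.48 in cell 8. The mean was 2.77 (SD 2.07, n = 17 cells). Its highest value lay below that of Twist1, and at FPKM 10 the same 9 cells were counted. Gm29100, annotated on the opposite strand, overlaps exons of Twist2.

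The Twist paralogs were found together in some cells and singly in others. At FPKM 5 or more, 5 cells had both (cells 6, 10, 14, 16 and 17), 5 had Twist1 only (cells 2, 5, 9, 12 and 15), 4 had Twist2 only (cells 3, 4, 7 and 8) and 3 had neither (cells 1, 11 and 13). The extremes were cell 2, with Twist1 at 7.77 and Twist2 at 0.14, and cell 8, with Twist1 at 1.13 and Twist2 at 5.48. Twist1 was the higher of the pair in 11 cells and Twist2 in 6. The difference, Twist1 minus Twist2, had a median of 0.72 and a mean of 1.23. The mean was smaller than the SD of 3.29, so the paralogs did not differ in level beyond the spread between cells. Their Spearman correlation over 17 cells was 0.05 (Pearson 0.03). At FPKM 1 the count with both was 10 cells, since values between 1 and 2.58 then count.

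**Figure D2:**
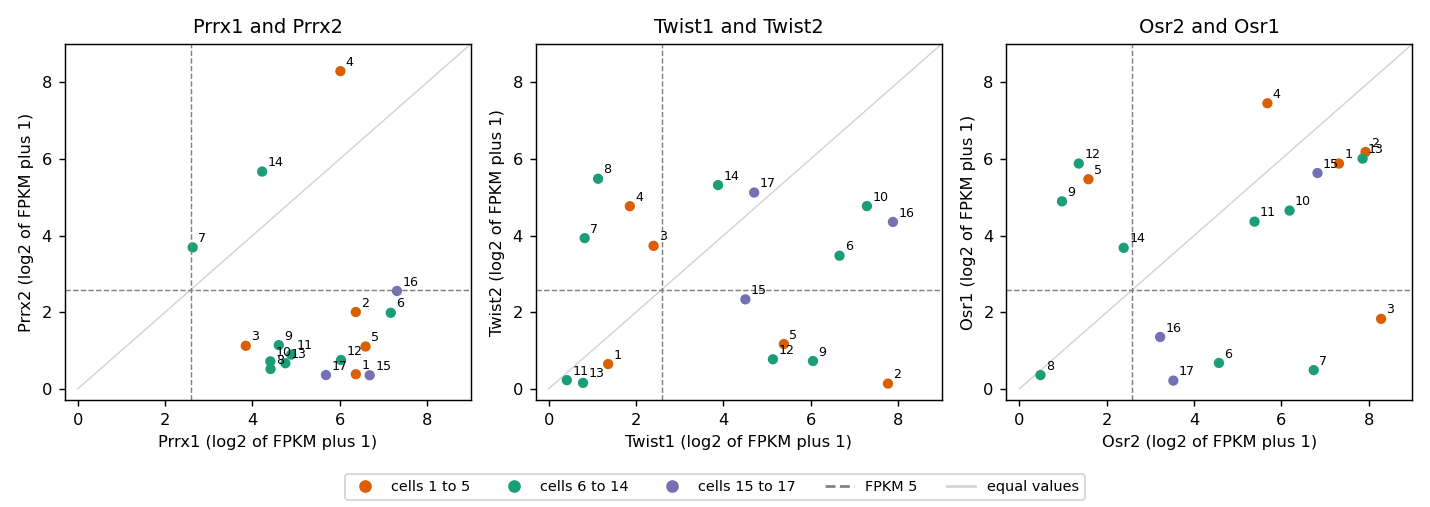
Values of the first-named gene (horizontal axis) and of its paralog (vertical axis) in each cell, both as log2 of FPKM plus 1, with cell numbers beside the points, dashed lines at FPKM 5 and a grey line of equal values. Prrx2 exceeds Prrx1 in cells 4, 7 and 14, the Twist pair has 5 cells with both genes, 5 with Twist1 only, 4 with Twist2 only and 3 with neither, and cell 8 alone lies low for both Osr genes.

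Snai2 (ENSMUSG00000022676, chr16:14705852-14709385) was under FPKM 1 in 12 cells and reached both FPKM 1 and FPKM 5 in the other 5. The values were 6.46 in cell 10, 5.76 in cell 8, 4.74 in cell 1, 3.36 in cell 4 and 2.87 in cell 16. No other cell was above 0.42, and 4 cells had the lowest value of their library, so that no value fell between 0.42 and 2.87. At FPKM 10 it was found in 3 cells. Its mean was 1.49 (SD 2.23, n = 17 cells).

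Osr2 (ENSMUSG00000022330, chr15:35296098-35303305) was second to Prrx1 by mean, 4.72 (SD 2.67, n = 17 cells), and reached FPKM 1 in 15 cells and FPKM 5 in 12. Its lowest value was 0.48 in cell 8, its median 5.38 and its highest 8.28 in cell 3. In 7 cells (1, 2, 3, 7, 11, 13 and 15) it was the highest of the 7 genes. Prrx1 was the highest in 4 cells, Twist1 in 3, Prrx2 in 2 and Snai2 in 1. The 3 cells with neither Twist gene at FPKM 5 all had Osr2, at 7.32 in cell 1, 5.38 in cell 11 and 7.86 in cell 13. This was seen after the values were known and has no test.

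The related factor Osr1, which is not among the 7 genes but has a row, reached FPKM 5 in 11 cells with a mean of 3.82 (SD 2.45). Both Osr genes reached FPKM 5 in 7 cells, Osr2 only in 5 and Osr1 only in 4. The 4 cells with Osr1 only (5, 9, 12 and 14) are all but 1 of the 5 cells without Osr2 at that limit, and cell 8 had neither gene. The Spearman correlation of the pair was 0.34 (Pearson 0.21). Osr2 minus Osr1 had a median of 1.44 and an SD of 3.22.

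Meox2 (ENSMUSG00000036144, chr12:37108540-37179534) had the lowest mean, 1.04 (SD 1.58, n = 17 cells). It stood out in cell 13 at 5.98 and in cell 1 at 3.85, the 2 cells at FPKM 5 or more. No other cell was above 1.76, and 4 cells had the lowest value of their library. Both Meox2 cells lacked Twist1 and Twist2 at FPKM 5 and had Osr2 above 7, which was also seen after the values were known and has no test. The paralog Meox1 had a row and reached FPKM 1 in 1 cell, at 2.08 in cell 7. Gm48617, on the same strand, overlaps exons of Meox2, and reads of the overlap may be counted to either.

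By mean the order of levels was Prrx1, Osr2, Twist1, Twist2, Prrx2, Snai2 and Meox2. No neighbours in this order differed beyond their spread: each of the 6 mean differences, from 0.40 to 1.23, was smaller than its SD over cells, from 2.29 to 4.16. Of all 21 pairs of genes, 4 differed by more than that SD, namely Prrx1 over Prrx2, Snai2 and Meox2, and Osr2 over Meox2. Prrx1 exceeded Meox2 in 16 cells by a mean of 4.37 (SD 2.05), and Osr2 exceeded Meox2 in 16 cells by a mean of 3.69 (SD 2.50). By median, Meox2 (0.60) stood above Snai2 (0.30).

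**Figure D3:**
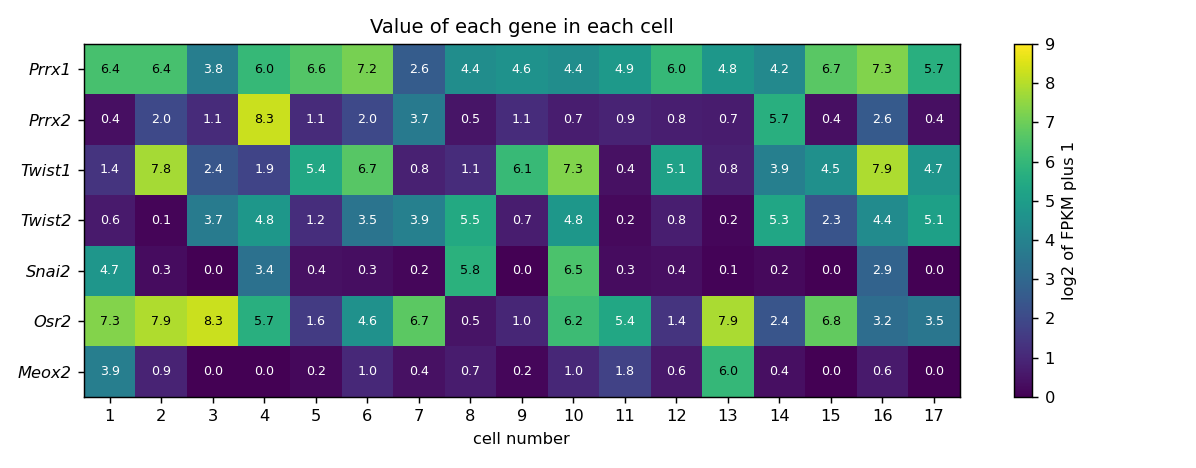
Value of each of the 7 genes (rows) in each of the 17 cells (columns), as log2 of FPKM plus 1, printed in each field and shown by colour. Prrx1 is above 2.58 throughout, whereas high values of the other genes fall in differing sets of cells.

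A cell held a median of 4 of the 7 genes at FPKM 1 or more, from 3 to 6, and a median of 3 at FPKM 5, from 2 to 5. Over all 119 values of the 7 genes in the 17 cells, 63.9% reached FPKM 1 and 48.7% reached FPKM 5. Over all rows the median shares in a cell were 51.7% and 40.5%. Prrx1 reached both limits in all 17 cells and so raised the shares of the 7 genes. Its detection is not independent of how the cells were picked. Cells 4, 10 and 16 held 5 genes at FPKM 5. Cells 5, 9, 11 and 12 held 2, which were Prrx1 and Twist1 in cells 5, 9 and 12 and Prrx1 and Osr2 in cell 11. At that limit the 17 cells showed 12 different combinations, of which 8 occurred in 1 cell each. The most frequent, Prrx1 with Twist1, occurred in 3 cells. Cells 10 and 16 shared the combination Prrx1, Twist1, Twist2, Snai2 and Osr2. All 3 cells with Prrx2 at FPKM 5 also had Twist2, which 9 of the 17 cells had at that limit. The Spearman correlation of Prrx2 with Twist2 was 0.12 and the Pearson correlation 0.41. Prrx2 was under FPKM 5 in 14 cells, so the Spearman value mostly orders low values of Prrx2. This overlap was seen after the values were known and has no test.

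The 7 genes did not rise and fall together. Over the 17 cells their 21 pairwise Spearman correlations had a mean of 0.0029 and a median of 0.04, with 11 positive and 10 negative. Over all pairs of the 3956 genes at FPKM 1 or more in at least 9 cells the median was 0, with 5% of pairs below -0.42 and 5% above 0.43. Only 5 of the 7 genes passed that filter, without Snai2 and Meox2, so the pairs compared were not filtered alike. The highest value was 0.47 for Prrx1 with Twist1 (Pearson 0.52), followed by 0.43 for Snai2 with Meox2 (Pearson 0.11) and 0.24 for Twist2 with Snai2 (Pearson 0.37). Snai2 and Meox2 were each under FPKM 1 in 12 of the 17 cells, 4 of them at the lowest value, so their rank correlations mostly order values below the detection limit. Prrx1 with Twist1 ranged from 0.37 without cell 16 to 0.61 without another cell, and was 0.36 with the means of the 3 sets subtracted. The lowest were -0.40 for Twist2 with Meox2 and -0.38 for Twist2 with Osr2. The points share library sets and the normalisation, and these correlations are descriptions of 17 cells.

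**Figure D4:**
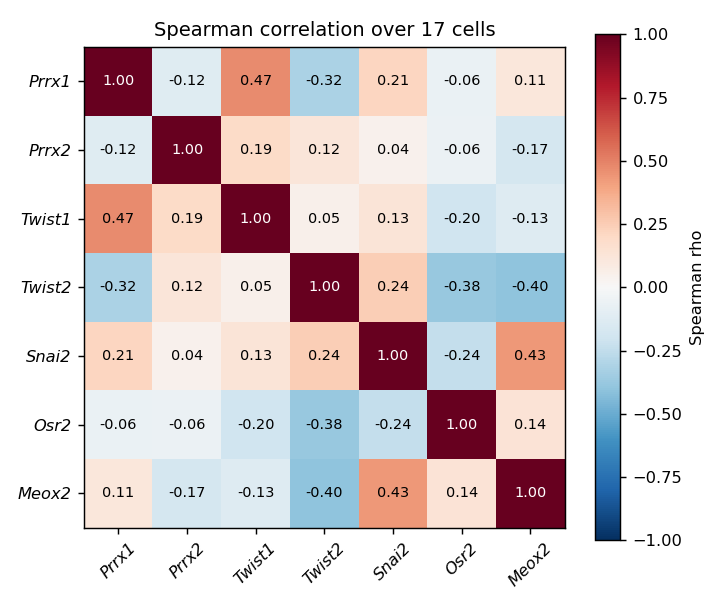
Spearman correlation over 17 cells for each pair of the 7 genes, printed in each field on a scale from -1 to 1. Values off the diagonal range from -0.40 (Twist2 with Meox2) to 0.47 (Prrx1 with Twist1).

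The genes most like each factor were named by Spearman correlation over the 17 cells, from 3865 genes at FPKM 1 or more in at least 9 cells, 5 for each factor. A high correlation comes easily with so many genes and 17 cells: the median over these rows (with ribosomal protein genes and gene models included) of the highest correlation with any other was 0.79, and of the fifth highest 0.71. Prrx1 was most like Vat1 (0.73), Gas1 (0.73), Ikzf5 (0.72), the matrix proteoglycan gene Prelp (0.71) and the metalloproteinase inhibitor gene Timp2 (0.70). Prrx2 was most like Mrfap1 (0.77), Man1a2 (0.77), Osbpl9 (0.76), Nras (0.73) and Pef1 (0.72). For Twist1 they were Smad1 (0.84), a transducer of BMP signals, Ubtf (0.77), the retinaldehyde dehydrogenase gene Aldh1a1 (0.74) and the urokinase gene Plau (0.73). For Twist2 they were the integrin-linked kinase gene Ilk (0.79), Ctage5 (0.78), Poldip2 (0.77), the clathrin adaptor gene Ap2m1 (0.76) and Samd4b (0.73). Snai2 was followed by Ankrd12 (0.81), Hagh (0.75), Snhg8 (0.74), the splicing regulator gene Mbnl2 (0.72) and Hpcal1 (0.71). Osr2 was followed by the IGF-binding protein gene Igfbp5 (0.80), the immunoproteasome gene Psmb8 (0.77), Isg20 (0.77), Trappc6a (0.76) and Kdm7a (0.74). Meox2 was followed by Mzt1 (0.75), Klf9 (0.74), Pigx (0.73), the lysosomal glucosidase gene Gaa (0.73) and Cpne1 (0.71). Snai2 and Meox2 themselves did not reach FPKM 1 in at least 9 cells, so the names given for them rest mostly on ranks below that limit. No gene was named for more than 1 factor. None of the 7 genes was named for another, but Snai2 and Meox2 could not be, because the filter left them out. With Pearson in place of Spearman 14 of these 35 were kept, and 11 with set means subtracted, so the names depend on the measure.

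Around the Twist genes, 6 of 7 listed dimer partners and Id genes had a row. E proteins dimerise with Twist factors, and Id proteins bind E proteins without binding DNA. Of the 6, 4 reached FPKM 1 in at least 9 cells, against 46.9% of all rows, and the median of their means was 3.69, against 1.89 over all rows. The inhibitor gene Id3 was high in all 17 cells (mean 8.66, SD 1.84), from 5.39 in cell 9 to 11.05 in cell 5. The E protein gene Tcf4 was detected in 16 cells (mean 5.30, SD 2.08), Id2 in 14 (mean 4.15, SD 2.86) and Tcf12 in 12 (mean 3.23, SD 2.35). Tcf3 was detected in 7 cells. Cell 16, which held the highest Prrx1 and Twist1, also held the highest Tcf3 (7.10), Tcf4 (8.37) and Id1 (8.57). The same cell had all 4 measured adipocyte markers and both measured Schwann cell markers at FPKM 1 or more. Its summed adipocyte markers came to FPKM 982, against 0.600 to 421 in the other cells, and its summed Schwann cell markers to FPKM 29.1, against 0.435 to 120 in the others. It also had the highest Cfd (9.70) and Pparg (2.56) of the adipocyte list. Of the mural list it had the highest Higd1b (4.32), and of the endothelial list the highest Esam (3.92). Mitf, the 1 measured melanocyte marker, was at FPKM 59.5 in cell 16, against up to 109 in the other cells. The summed keratinocyte and immune markers of cell 16 were at FPKM 0.253 and 0.0601. The part of these markers in the values of cell 16 was not tested.

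Of 10 listed factors of the epithelial to mesenchymal transition 4 had a row. Klf4 was detected in 17 cells (mean 8.03, SD 0.94), Zeb2 in 16 (mean 5.43, SD 2.33), Zeb1 in 14 (mean 3.89, SD 2.40) and Sox4 in 4. Zeb1 and Zeb2, zinc finger repressors of epithelial genes, were thus found in more cells than the 5 with Snai2, and both were highest in cell 16, at 7.33 and 8.83. Of 10 listed relatives of the 7 genes 3 had a row: Osr1 in 13 cells, Shox2 in 3 and Meox1 in 1. Snai1 and the Alx and Hand genes were not analysed here.

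Of 30 listed factors of dermal mesenchyme 21 had a row and 11 reached FPKM 1 in at least 9 cells, near the 46.9% of all rows. The median of their means was 1.70, against 1.89 over all rows. Nfix (mean 7.33, SD 2.19), Ebf1 (mean 6.60, SD 1.41) and Nfia (mean 4.12, SD 1.54) were detected in all 17 cells. En1, a marker of the lineage that forms most dorsal dermal fibroblasts in mouse, was detected in 9 cells and at FPKM 5 in 6. Tbx15 was detected in 9 cells at both limits. Gata6 and Heyl were detected in none, at most 0.14 and 0.24. Prrx1 was thus 1 of several factors detected in all 17 cells, and the 14 cells with Twist1 and 15 with Osr2 were close to the 14 with Zeb1 and 14 with Id2.

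**Figure D5:**
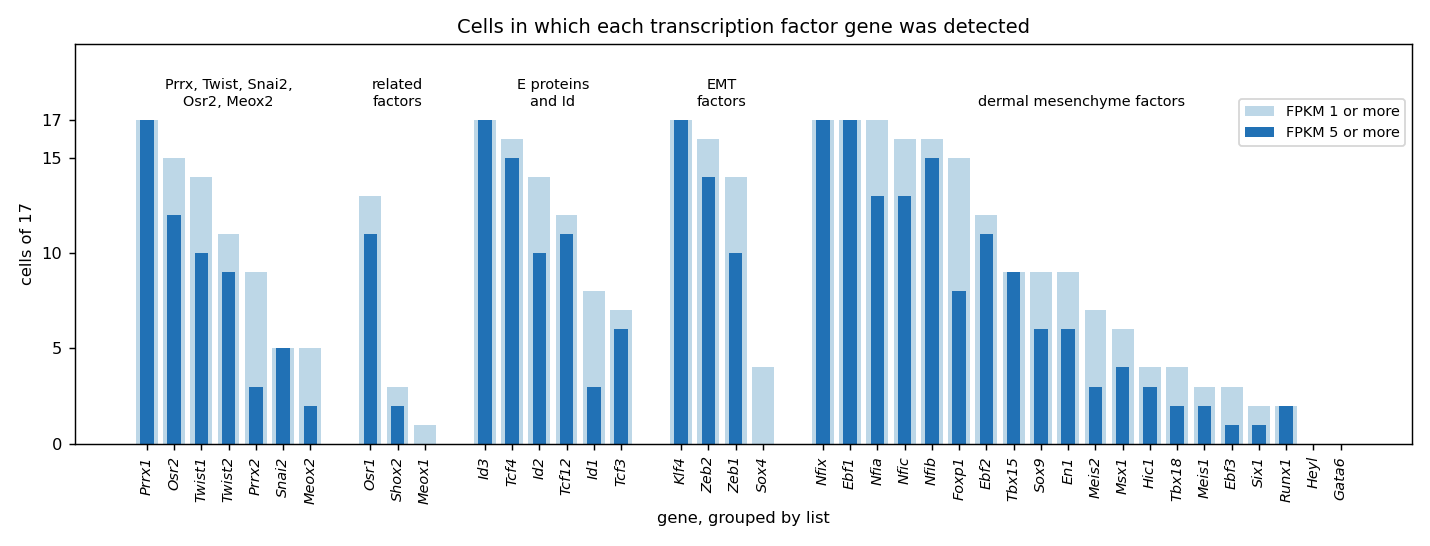
Number of cells out of 17 (vertical axis) in which each transcription factor gene was at FPKM 1 or more (pale bars) and at FPKM 5 or more (dark bars), with the 7 genes at left and the listed related genes to the right. Prrx1, Id3, Klf4, Nfix and Ebf1 fill both bars to 17, while the dark bar of Prrx2 drops to 3.

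Of 17 listed mesenchymal genes that such factors are known to accompany, 15 had a row. Of the 15, 13 reached FPKM 1 in at least 9 cells, against 46.9% of all rows, and 9 did so in all 17. At FPKM 5, 7 of the 15 were found in all 17 cells, against 7.20% of all rows. The median of the means of the 15 genes was 5.71, against 1.89 over all rows. Some of them are also fibroblast markers. The highest were S100a4 (mean 11.32, SD 1.53), Col1a2 (mean 10.98, SD 1.19), the intermediate filament gene Vim (mean 10.54, SD 0.72) and Col1a1 (mean 8.82, SD 1.50). The matrix gene Tnc, reported as a Prrx1 target in vascular cells, was detected in no cell, at most 0.59 in cell 11. Whether Prrx1 acts on Tnc in these cells was not tested. Postn was detected in 16 cells and ranged from 0.99 in cell 5 to 9.36 in cell 2. Of 13 listed epithelial genes, some of which Snai2 or Twist1 is known to repress, 1 had a row. This was the junction gene Tjp1, found in 2 cells. The table thus holds too few epithelial genes to set against Snai2.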

How the data were processed

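RNA of 17 single cells was measured in one deposited table. The submitters' processing notes name TopHat2, Cufflinks and GRCm38, without versions or settings. The deposited values were read as log2 of FPKM plus 1. Back-transformed with base 2, cell 1 summed to 592955. Per the file's values the cells were quantile normalised: sorted values above 3 differed by at most 0.0165 between cells. The 871 to 1766 rows at the lowest value of each cell carry no ranking.

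Cells were matched to columns by the number in their titles. Where a symbol had more than 1 row, the row of highest mean stood for it. Detection was FPKM 1 or more, with FPKM 5, FPKM 10 and any value above the lowest as alternatives. Neighbouring genes were said to differ beyond their spread where the mean per-cell difference exceeded its SD. No test was made, because no animal is named and cells are not replicates. The text names the 7 genes, the 5 genes most like each by Spearman correlation (at FPKM 1 in at least 9 cells, without ribosomal protein genes and gene models), and of each list the 4 members detected in the most cells and those detected in none. Of the genes that this rule names, 2 are not reported here. Further list members named were chosen after their values were seen. The likeness step was tested on simulated data. The genes and lists were chosen with earlier results of these data known. Positions, exonic lengths and coding sequences came from GENCODE M21 on GRCm38, where all 7 genes matched by identifier, and the longest coding transcript of each gene was aligned globally with Biopython 1.88. The computations ran in Python 3.11.15 with scipy 1.17.1, pandas 2.3.3 and numpy 2.4.6, and figures were drawn with matplotlib 3.10.9.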

Additional observations from a re-analysis of the deposited data

How the results depend on the processing

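Counts of cells moved with the detection limit. For Prrx1 with Prrx2 the 9 cells at FPKM 1 became 17 with any value above the lowest, 3 at FPKM 5 and 2 at FPKM 10. For Twist1 with Twist2 the 10 cells became 17, 5 and 5. In the same order Prrx2 alone (9 cells) became 17, 3 and 3, Twist2 (11) 17, 9 and 9, Snai2 (5) 13, 5 and 3, and Meox2 (5) 13, 2 and 2. The median number of the 7 genes per cell, 4, was 7 with any value above the lowest, and the 36 list genes found in at least 9 cells became 58. The median of Prrx1 minus Prrx2, 4.09, was 7.03 after multiplication by exonic length. Of 35 genes named as most alike, 20 were kept with no filter beyond detection in 1 cell, 14 with Pearson and 11 with set means subtracted. Leaving out each cell in turn, the mean correlation among the 7 genes lay between -0.029 and 0.0208. The order of levels was the same by length-multiplied values and with a pseudocount of 0.1. Rescaling each cell to one sum changed no count of cells for the 7 genes. Quantile normalisation had already made the sums of the cells almost equal, so this outcome was largely fixed in advance. The cause of each move was not tested beyond what its setting fixes. Depth is unknown, so a detection limit in reads cannot be stated. No paired analysis was possible because the cells form 1 group.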

Other observations

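Of 14 listed genes of TGF-beta, FGF and Notch signals, which are known to act upstream of these factors, 10 had a row. Of these, 4 reached FPKM 1 in at least 9 cells, near the 46.9% of all rows, and the median of their means was 1.67, against 1.89 over all rows. The receptor gene Tgfbr2 was found in all 17 cells (mean 6.41, SD 1.51), the fibroblast growth factor gene Fgf7 in 14 (mean 4.32, SD 2.39), Smad4 in 12 (mean 2.50, SD 2.02) and the ligand gene Tgfb2 in 10 (mean 2.45, SD 2.48). Tgfb2 was highest in cell 2, at 8.08, as were Tgfbr2, at 9.40, and Postn, at 9.36. Fgf10, the ligand gene related to Fgf7, was found in 1 cell, at 1.02 in cell 16.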
